A study of Mus musculus with 8 samples.

Results

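Broad domains of 5-hydroxymethylcytosine (5hmC) in the mouse hippocampus are described here. They are stretches of genome of 5000 bp or more that lay under an unbroken chain of overlapping 5hmC peaks. The peaks of all 8 deposited lists were pooled and peaks sharing 1 bp or more were joined, and joined (merged) regions on chromosomes 1 to 19 with a width of at least 5000 bp were kept. This gave 406 domains among 156660 merged autosomal regions, or 0.259%, and none among the 84 merged regions of chromosome X. The domains spanned 2.57 Mb, which was 1.54% of the 166.5 Mb of merged length. Widths and peak positions chose the domains, so they are given as a description with no test.

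The genomic DNA came from hippocampus of C57BL/6 mice that differed in age and housing. The 4 groups were aged enriched, aged control, young enriched and young control, with 2 samples each. Aged mice were 18 months old and young mice 6 weeks old. Enriched mice spent 5 h a day for 4 weeks in a large chamber furnished with toys, tunnels and a wheel, while control mice stayed in standard cages. All groups share strain and tissue. Whether the 2 samples of a group are from separate mice is not stated in the labels, so the p-values reflect the spread between samples that may differ only technically. The design asks how age and housing bear on where 5hmC lies in the genome. Lists held 25548 and 30832 peaks in aged enriched samples, 59260 and 38000 in aged control samples, 57492 and 59462 in young enriched samples and 43709 and 78980 in young control samples. Read depth is not given in the sources used here, so list length is the sole measure of how much was detected. In a bulk tissue, fewer cells with the mark and less mark per cell cannot be told apart.

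5hmC is made from 5-methylcytosine by the TET dioxygenases. It is an intermediate on the way to removal of methylation and also a lasting mark in its own right. Neurons carry more of it than most cell types, and it is known to lie over the bodies of transcribed genes and over distal enhancers, while CpG-rich promoters of active genes hold little. The assay used here attaches a glucose with an azide to each 5hmC by a glucosyltransferase, adds biotin to it and captures the labelled fragments on streptavidin. It therefore records where labelled fragments pile up. It gives no level per cytosine and no strand. A broad domain in such a map is a long stretch in which captured fragments kept passing the peak caller's threshold in at least 1 sample at each base. Peak coordinates are in build mm9, counted from 1, and overlap with genes was not analysed here.

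Most of the broad domains were only slightly wider than the threshold, and a few were much wider. The median width was 5888.5 bp, with quartiles of 5339.8 and 6740.5 bp. There were 182 domains of 6000 bp or more, 43 of 8000 bp or more and 7 of 10000 bp or more, and the widest measured 18006 bp. Of the narrowest domains, 1 lay at 167532290 to 167537289 of chromosome 1 and another at 8532443 to 8537442 of chromosome 10, both 5000 bp wide. The next, at 102387126 to 102392126 of chromosome 5, was 5001 bp wide. Of the regions that just missed the threshold, those at 69962676 to 69967665 of chromosome 14 and 114303134 to 114308123 of chromosome 5 measured 4990 bp. The widest of them, at 113027739 to 113032731 of chromosome 11, measured 4993 bp. The threshold therefore cuts a continuous range of widths. The longest list, that of young control replicate 2, contributed most to the count: without it the same rule found 245 domains.

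**Figure D1:**
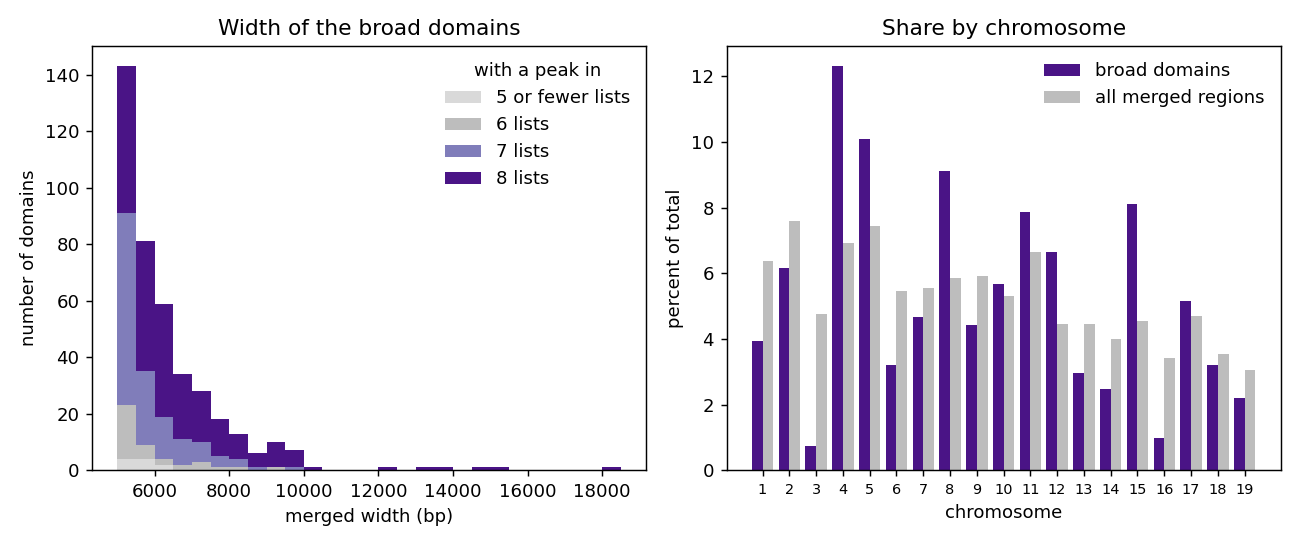
Left, the number of broad domains by merged width in bp, with bars shaded by how many of the 8 lists have a peak in the domain. Right, the percent of the 406 broad domains and of all 156660 merged autosomal regions on each chromosome, where chromosome 4 holds 12.3% of the domains and 6.92% of the regions.

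Nearly every domain was seen in most samples. A domain held 2 to 48 peaks, with a median of 16 over the 8 lists. A peak of all 8 lists lay in 228 domains (56.2%), of 7 lists in 134 (33.0%), of 6 lists in 34 (8.37%) and of 5 lists in 9. The remaining domain, on chromosome 19 at 37356528 to 37362084, had peaks in 2 lists, and a single 5557 bp peak of young control replicate 2 spanned all of it. Among narrower regions, peaks of all 8 lists were found in 37.9% of the 585 regions of 4000 to under 5000 bp, 12.4% of the 10445 regions of 2000 to under 5000 bp and 1.05% of the 49510 regions of 1000 to under 2000 bp. Merging more peaks makes a region wider, so the number of lists and the width are tied to each other by the rule.

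A broad domain was usually a chain of shorter peaks placed differently in each sample, not 1 long peak. A single peak of 5000 bp or more lay in 92 domains (22.7%), and in the other 314 the width arose only after merging. The widest single peak took up a median of 61.6% of the domain, with quartiles of 47.1% and 77.9%. It came from young control replicate 2 in 204 domains, from aged control replicate 1 in 78, from young enriched replicate 2 in 64, and from an aged enriched sample in none. Peaks of all 8 samples shared at least 1 bp in 119 domains and none in 287. Over all domains, 11.0% of the length lay under peaks of 1 list only, 28.8% under peaks of 6 or more lists and 2.33% under peaks of all 8.

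The widest domain lay on chromosome 5 at 125506386 to 125524391 and held 48 peaks. Peaks covered 39.0% and 6.59% of it in aged enriched samples, 89.6% and 44.5% in aged control samples, 67.8% and 66.6% in young enriched samples and 77.8% and 82.5% in young control samples. Both aged enriched samples were below the other 6. A neighbouring domain followed within 10 kb, and the pair spanned 30564 bp up to position 125536949. The next widest domain, of 15265 bp on chromosome 8 at 126826137 to 126841401, had no base under peaks of all 8 samples. Its covered share was 14.6% and 14.5% in aged enriched samples, 85.8% and 28.5% in aged control samples, 59.3% and 70.8% in young enriched samples and 48.2% and 89.2% in young control samples. The replicates of aged control and of young control differed more here than most groups did.

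The other domains among the widest 5 lay on chromosomes 12, 8 and 10, and all 5 had peaks in all 8 lists. That on chromosome 12, at 114145783 to 114160463, was 14681 bp wide, and peaks covered 29.9% and 12.2% of it in aged enriched samples, against 31.4% to 90.2% in the other samples. On chromosome 8, the domain at 123090414 to 123104234 was 13821 bp wide and held the widest single peak found in any of these 5, of 9575 bp in young control replicate 2. Aged enriched samples covered 27.3% and 14.2% of it, against 55.7% to 87.5% in the other samples. On chromosome 10, a domain of 13273 bp lay at 126985010 to 126998282, with 33.4% and 9.90% covered in aged enriched samples and 67.9% to 92.0% in the others. In all 5 domains both aged enriched samples lay below every other sample, and their lists were also the shortest. Both lay below both aged control samples in 317 of the 406 domains (78.1%), against 25.4% of the 56794 regions fitted further on. The 5 were picked by width, so this is a description.

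**Figure D2:**
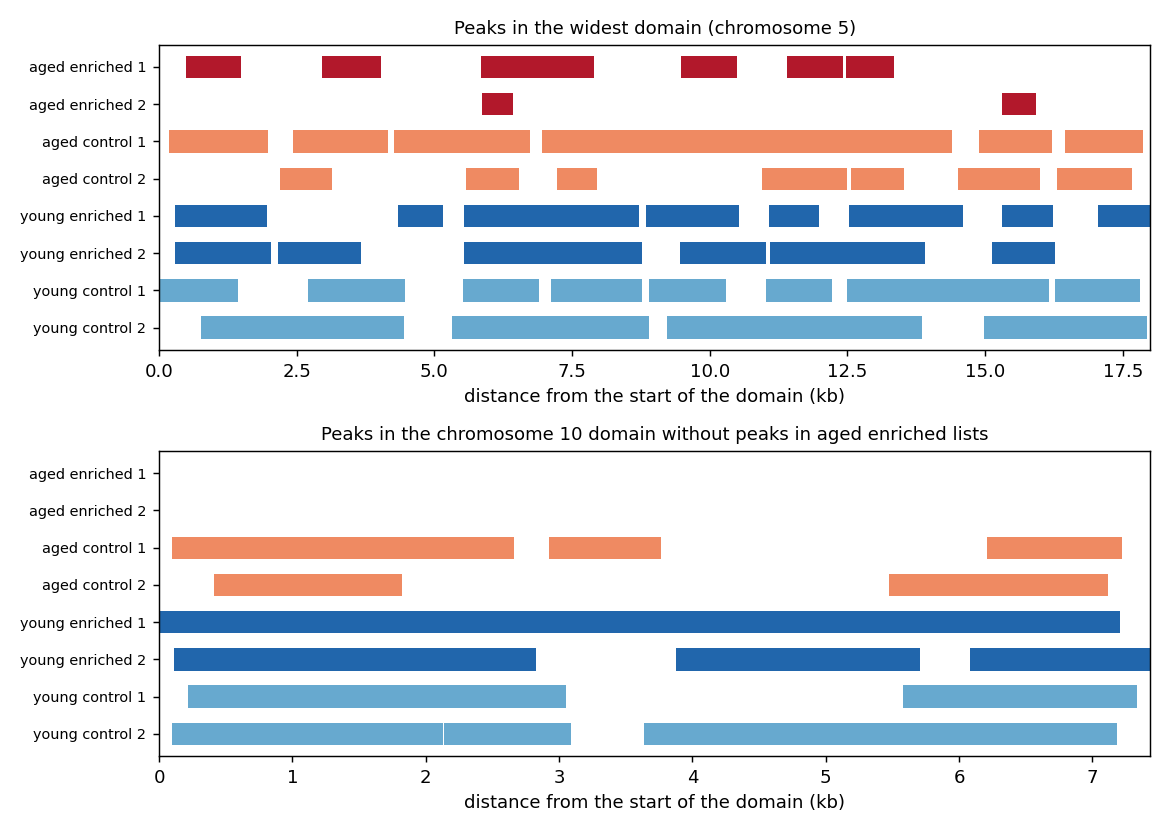
Peaks of each sample, 1 row per sample, drawn by distance in kb from the start of a domain. Above is the widest domain, on chromosome 5, which is a chain of 48 short and long peaks. Below is the domain on chromosome 10 at 39224931, where neither aged enriched sample has a peak and young enriched replicate 1 has 1 peak of 7210 bp.

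The domains with the highest mean covered share were filled for most of their length outside the aged enriched samples. The highest mean, 77.8%, belonged to a 5123 bp domain on chromosome 10 at 79437898 to 79443020. Peaks covered 49.3% and 29.1% of it in aged enriched samples, 95.1% and 94.4% in aged control samples, 79.4% and 86.0% in young enriched samples and 94.9% and 94.2% in young control samples. A second domain on the same chromosome, at 79195366 to 79204079, averaged 76.9% and had the most bases under peaks of all 8 lists, 1589 bp. Next came a domain at 155455699 to 155461607 of chromosome 2, with a mean of 76.4%, and one at 108472969 to 108479446 of chromosome 9, with 76.0%. A 9793 bp domain at 141024220 to 141034012 of chromosome 4 averaged 74.3%. There the aged enriched replicates stood far apart, with 65.4% and 12.4% covered, against 77.7% to 94.5% in the other samples.

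As a whole, the 406 domains were sparsely covered in aged enriched samples. Peaks lay over 21.5% and 9.91% of the domain length in aged enriched samples, 67.5% and 43.8% in aged control samples, 60.8% and 69.2% in young enriched samples and 58.9% and 82.6% in young control samples. The means were 15.7% ± 8.16 in aged enriched, 55.6% ± 16.8 in aged control, 65.0% ± 5.97 in young enriched and 70.8% ± 16.7 in young control samples (SD, n = 2 each). The aged enriched samples did not overlap any other group, and the other 3 groups overlapped one another. Aged enriched samples also had the fewest peaks in their lists, 25548 and 30832. Domains with at least 50% of their length covered numbered 20 and 0 in aged enriched samples, 320 and 161 in aged control, 291 and 347 in young enriched and 267 and 392 in young control samples.

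**Figure D3:**
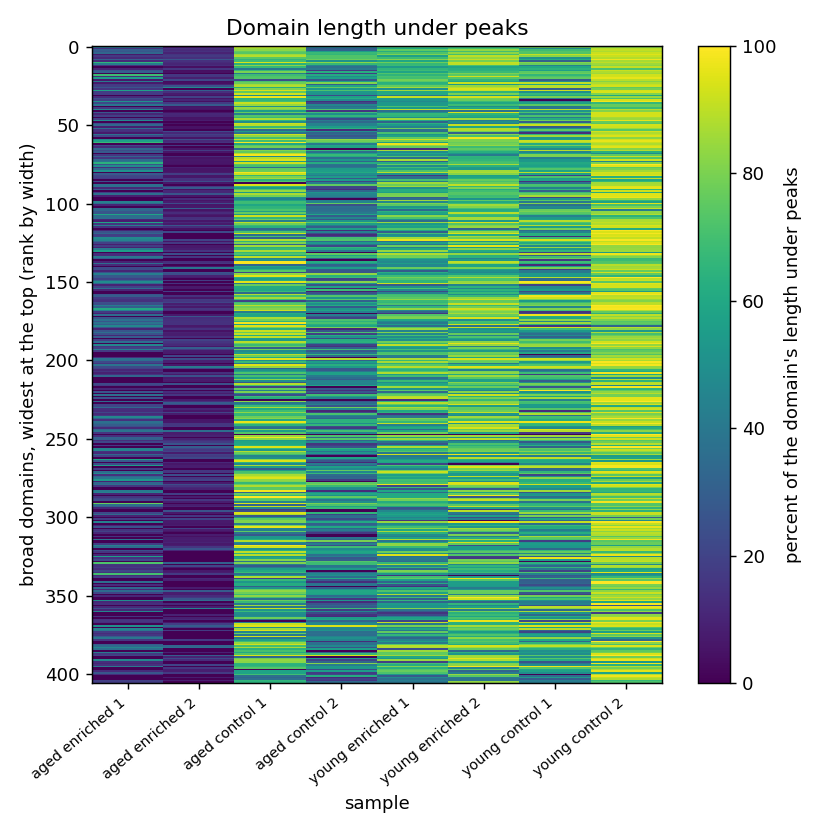
Percent of each domain's length under peaks, with 1 row for each of the 406 domains (widest at the top) and 1 column per sample. The aged enriched columns are dark from top to bottom (21.5% and 9.91% of the domain length), and young control replicate 2 is bright throughout (82.6%).

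The shortfall in aged enriched samples lay in both the number and the width of the peaks. In total, peaks inside domains numbered 586 and 534 in aged enriched samples and 938 and 943 in aged control samples. They numbered 988 and 968 in young enriched samples and 884 and 930 in young control samples. Domains with at least 1 peak numbered 319 and 292 in aged enriched samples, 401 and 387 in aged control samples, 405 and 402 in young enriched samples and 401 and 406 in young control samples. Where a domain had a peak, the mean number of peaks was 1.84 and 1.83 in aged enriched samples, against 2.20 to 2.44 in the other 6. The mean width of peaks inside domains was 941 and 477 bp in aged enriched samples, 1849 and 1192 bp in aged control samples, 1580 and 1837 bp in young enriched samples and 1712 and 2282 bp in young control samples. Peaks that were themselves 5000 bp or wider numbered 0 and 0 in aged enriched samples, 29 and 4 in aged control, 8 and 15 in young enriched and 14 and 61 in young control samples. Over whole lists too, aged enriched samples had the narrowest peaks, with medians of 650 and 430 bp, while those of the other 6 lay between 738 and 952 bp.

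The strongest peak in a domain ranked high within its own list in most samples. By the authors' score, the median domain's strongest peak stood above 89.3% and 69.7% of the list's peaks in aged enriched samples, 97.7% and 94.2% in aged control samples, 96.7% and 97.2% in young enriched samples and 95.7% and 98.6% in young control samples. Aged enriched replicate 2 was the lowest. For regions of 4000 to under 5000 bp the values were 77.1% and 60.8% in aged enriched and 93.3% and 86.3% in aged control samples. They were 92.1% and 92.6% in young enriched and 89.9% and 95.9% in young control samples. The rule chose wide regions, most with several peaks, so the ranks are a description. The share of a whole list's length that fell in domains was 3.01% and 1.86% in aged enriched samples, 2.97% and 3.58% in aged control, 2.81% and 2.90% in young enriched and 3.36% and 2.45% in young control samples. On that relative scale aged enriched replicate 1 lay inside the range of the other groups and replicate 2 lay below it.

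Some domains had no peak in either aged enriched sample. There were 29 of these (7.14%), and 21 of them had a peak in all 6 other samples, while 234 domains had a peak in both aged enriched samples and 143 in exactly 1. One of them, on chromosome 11 at 112923910 to 112929626, was listed at 0 in both aged enriched samples, with 67.7% and 56.3% covered in aged control, 88.9% and 63.8% in young enriched and 58.2% and 78.7% in young control samples. On chromosome 8, the domain at 124783626 to 124790971 was also at 0 in both aged enriched samples, against 88.9% and 55.4% in aged control, 58.8% and 53.0% in young enriched and 59.3% and 49.3% in young control samples. At 39224931 to 39232365 of chromosome 10, a domain of 7435 bp had 0 in both aged enriched samples, 59.4% and 41.0% in aged control, 97.0% and 79.3% in young enriched and 61.8% and 87.8% in young control samples. These domains were picked for being empty in aged enriched samples, so the gap is a description. Aged enriched samples also had the shortest lists, and the part of list length in these absences was not tested.

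So that no sample helped to define the domains it was measured on, they were defined again for each sample from the other 7 lists. The same rule was used, and the domains were then measured in the sample left out. This gave 245 to 405 domains per sample. In every sample the domains set by the other 7 lists were covered more fully than the narrower regions set by the same lists. The covered share was 21.2% of domain length against 8.36% of the narrower regions in aged enriched replicate 1, and 9.83% against 5.60% in replicate 2. It was 66.1% against 28.3% and 43.6% against 15.7% in aged control samples. In young enriched samples it was 60.1% against 28.8% and 68.0% against 31.7%, and in young control samples 58.0% against 23.2% and 81.5% against 44.4%. The fold of domains over narrower regions averaged 2.22, between 1.76 and 2.78, and was above 1 in 8 of 8 samples (exact two-sided sign-flip permutation test, p = 0.00781, the smallest that 8 samples can give). Against regions of 2000 to under 5000 bp the fold averaged 1.33, between 1.18 and 1.53, again in 8 of 8 samples (exact sign-flip permutation, p = 0.00781). Regions that were wide in the union of 7 lists were better filled in the sample left out than both sets of narrower regions. Wide regions are also those with peaks in more lists, and no comparison held the number of lists equal. Better filling in a further list can therefore not be credited to width. The sets of 7 lists also share most of their lists, so the 8 folds are not independent of one another. Regions of 4000 to under 5000 bp, the nearest in width, were not compared in this way. With classes set by all 8 lists, these regions were filled only somewhat less than the domains. Coverage was 63.8% against 67.5% in aged control replicate 1, 37.8% against 43.8% in replicate 2 and 9.37% against 9.91% in aged enriched replicate 2.

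**Figure D4:**
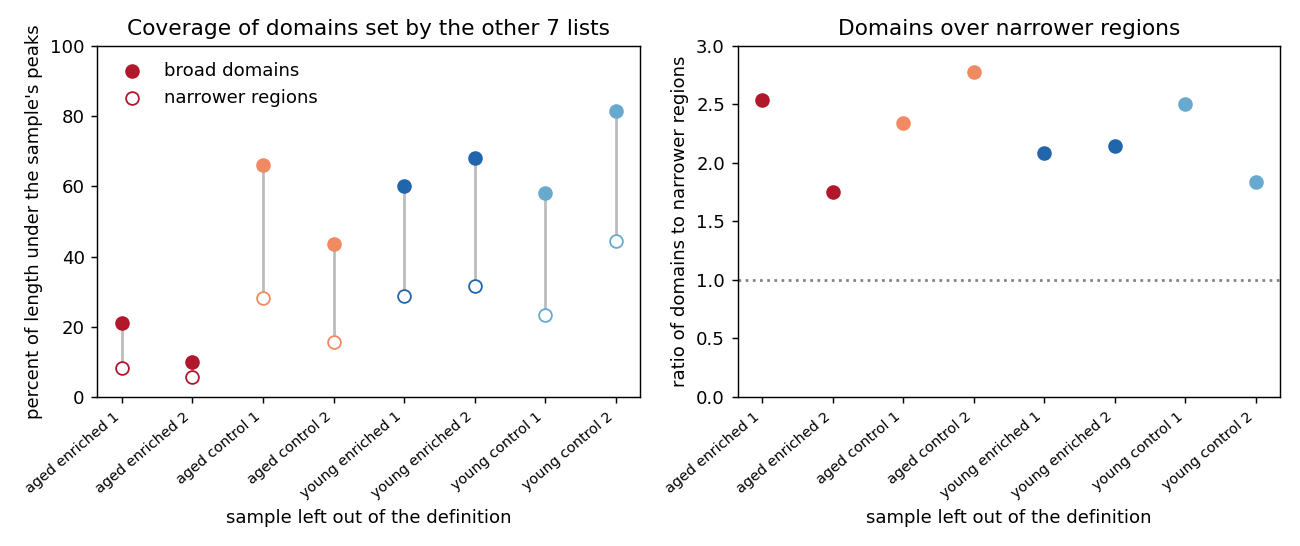
Left, the percent of length under each sample's peaks in broad domains (filled circles) and in narrower merged regions (open circles), both defined from the other 7 lists. Right, the ratio of the 2 values per sample, between 1.76 and 2.78, with a dotted line at 1.

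Neither age nor housing passed the test on the coverage of domains set by the other lists, a test that could hardly pass. The smallest p that 4 samples against 4 can give is 0.0286. Reached in 1 test alone, that p would not pass after adjustment over 6 tests. The lack of a pass therefore does not show that age or housing had no effect. Each sample was measured on its own set of domains, from 245 in young control replicate 2 to 405 in aged enriched replicate 2. Aged samples averaged 35.2% ± 24.9 of domain length and young samples 66.9% ± 10.6 (SD, n = 4 each). The log2 difference, aged minus young, was -1.25, a ratio of geometric means of 0.420 (exact two-sided permutation over 70 assignments, p = 0.0857, adjusted p = 0.514 over 6 tests). On the same 406 domains in every sample, set by all 8 lists, it was -1.26. Without aged control replicate 1, the best covered aged sample, the difference was -1.66 and passed the exact permutation threshold unadjusted, with p = 0.0286. Coverage averaged 39.8% ± 28.6 in the enriched arm and 62.3% ± 15.8 in the control arm (SD, n = 4 each). That log2 difference was -0.9998, a ratio of 0.500 (exact permutation p = 0.286, adjusted p = 0.556).

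Within each age, enriched and control samples are set side by side here. The test of the difference between the 2 housing effects could not pass at any value. Aged enriched samples had 21.2% and 9.83% and aged control samples 66.1% and 43.6% of domain length covered, a log2 difference of -1.89 or a ratio of 0.269. Young enriched samples had 60.1% and 68.0% and young control samples 58.0% and 81.5%, a log2 difference of -0.11 or a ratio of 0.930. An exact permutation test of 2 samples against 2 cannot go below p = 0.333, so none was made on this summed coverage; the fit over all regions given further on tests both contrasts for each domain. The difference between the housing effects, aged minus young, was -1.79 on the log2 scale (exact permutation of housing within age over 36 assignments, p = 0.222). The smallest p this permutation can give is 0.0556, above the threshold, so the test decides nothing about the difference.

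Set against the narrower regions of the same sample, the domains passed no test for a difference by age or housing. The fold of domains over narrower regions was 2.35 ± 0.436 at 18 months and 2.14 ± 0.275 at 6 weeks of age (SD, n = 4 each). It was 2.13 ± 0.320 with enriched housing and 2.36 ± 0.396 with control housing (SD, n = 4 each). The log2 differences were 0.12 for aged minus young (exact permutation p = 0.486) and -0.14 for enriched minus control (exact permutation p = 0.429). The difference between the housing effects was -0.25 (exact permutation p = 0.556). Each of these 3 tests had an adjusted p of 0.556. The aged minus young value changed its sign to -0.20 when lists were made equally long. With such lists, enriched minus control was -0.32 (exact permutation p = 0.0571, unadjusted). The difference between the housing effects was then -0.53 (exact permutation p = 0.278, unadjusted). Aged enriched minus aged control, which was not tested, was -0.27, and -0.58 with equally long lists. No change particular to domains passed a test, and with so few samples this does not show that there was none.

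Inside domains, stretches covered by more of the other lists were more often covered in each sample. Each base of a domain was classed by how many of the other 7 lists had a peak over it. Over bases with a peak in 1 other list, a sample's own peaks covered 3.13% to 53.5%, with a median of 21.7% over the 8 samples. Over bases with a peak in 4 other lists this was 6.84% to 92.4%, with a median of 69.1%, and over bases with a peak in all 7 others it was 24.6% to 99.4%, with a median of 95.4%. The share went up at every step in each of the 8 samples. In aged enriched replicate 1 it was 6.49% with 1 other list and 50.6% with 7, and in replicate 2 it was 3.13% and 24.6%, so most of the stretches under peaks of all 7 other lists had no peak of replicate 2. The domains themselves were built from these peaks, so this is a description of their inner layout.

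**Figure D5:**
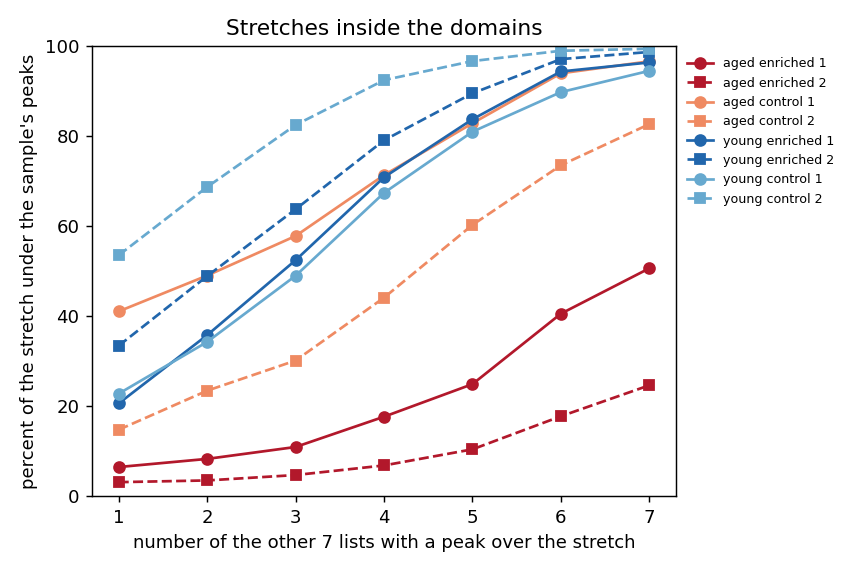
Percent of the stretch under a sample's own peaks against the number of the other 7 lists with a peak over it, 1 line per sample. All 8 lines go up at every step, to between 24.6% and 99.4% at 7 other lists, with the aged enriched samples lowest.

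Which domains were well covered differed from sample to sample. Over the 406 domains, Spearman correlations of the covered share between samples lay between 0.0882 and 0.397 in the 28 pairs, with a median of 0.249. Pairs of the same group ranged from 0.165 to 0.323. The domains share libraries and are not independent replicates, so no p is given. The highest value belonged to a pair of samples of the same age from different housing.

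No single domain passed the test across all regions. The length under peaks, relative to each sample's list, was fitted by limma over 56794 autosomal regions with a mean of at least 250 bp under peaks, among them all 406 domains. In aged enriched minus aged control, 0 domains passed at an adjusted p under 0.05, against 0.0% of all regions tested. At an unadjusted p under 0.05 it was 84 domains (20.7%) against 13.9% of regions. In young enriched minus young control limma called 0 domains against 0.0% of regions, and 1 domain (0.246%) against 4.59% at unadjusted p. Aged minus young gave 0 limma calls against 0.0%, and 41 domains (10.1%) against 17.5% at unadjusted p. Enriched minus control gave 0 limma calls against 0.0%, with 38 domains (9.36%) against 11.0% at unadjusted p. The difference between the housing effects gave 0 limma calls against 0.0%, with 40 domains (9.85%) against 10.1% at unadjusted p. In data simulated for aged enriched minus aged control with the spread of these samples, limma recovered 0% to 2% of changed regions of each size, so an absence of calls says little.

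Leaving out a library or the scaling to the list changed these counts. In aged minus young without young control replicate 2, limma called 5 of 245 domains lower (2.04%), against 3.55% of regions, and 1 higher (0.408%), against 0.0706%. Without young control replicate 1 it called 4 of 353 domains lower (1.13%), against 6.56% of regions, and 1 higher (0.283%), against 0.209%. Without scaling to the list it called 41 of 406 domains lower (10.1%), against 3.70% of regions. At unadjusted p, aged enriched minus aged control gave 192 of 398 domains (48.2%) against 15.2% of regions without aged enriched replicate 1, and 125 of 405 (30.9%) against 14.3% without replicate 2. Aged minus young then gave 149 (37.4%) against 10.5% without aged enriched replicate 1 and 136 (33.6%) against 12.03% without replicate 2. Enriched minus control gave 161 (40.5%) against 11.0% and 103 (25.4%) against 9.93% in the same 2 fits, and the difference between housing effects 167 (42.0%) against 11.2% and 106 (26.2%) against 10.6%. When 1 of the other 6 samples was left out, these 4 contrasts gave 5.61% to 14.95% of domains at unadjusted p. That was below the share of regions except in aged enriched minus aged control without young enriched replicate 2 (14.95% against 14.1%) and without young control replicate 1 (14.7% against 13.6%). In these 4 contrasts the domains thus exceeded regions at unadjusted limma p whichever aged enriched sample was left out. With all 8 samples and the main settings they did so only in aged enriched minus aged control. That contrast gave 31.8% of domains against 11.8% of regions with equally long lists. It gave 32.3% against 6.69% with quantile normalization and 63.5% against 14.5% without scaling to the list. Fitting only the 4 aged samples gave 5.91% against 6.28%. With only regions of a mean of at least 500 bp under peaks, the same contrast gave 20.7% of domains against 20.5% of regions. The excess over regions in the main fit thus depends on which regions the domains are set against.

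Most fitted values of the domains were negative in contrasts with aged samples. In aged enriched minus aged control, 321 of the 406 domains had a negative limma estimate, with a median of -0.73, against a median of -0.63 over all regions. Without aged enriched replicate 2, 227 of 405 were negative, with a median of -0.13 against -0.85 over all regions. In aged minus young 268 were negative, with a median of -0.30 against -0.43 over all regions. Without aged enriched replicate 2, that median was 0.039 in the domains against -0.51 over all regions. In young enriched minus young control the 406 domains split into 205 positive and 201 negative, with a median of 0.00256 against 0.0471. Without scaling to the list, the medians in aged enriched minus aged control were -1.81 in domains and -0.92 in all regions, and with quantile normalization -0.86 and 0.058. With only regions of a mean of at least 500 bp under peaks, they were -0.73 in domains and -0.86 in all regions. How far the domains stand from other regions thus depends on the scaling and on the regions fitted.

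The domains with the smallest p in each contrast included several that were empty in aged enriched samples. In aged enriched minus aged control, the domains on chromosomes 10 at 39224931 and 8 at 124783626 had the smallest p among those lower, with an adjusted p of 0.237 by limma for both. No fold is given, since both aged enriched samples were listed at 0. Among those higher relative to the list, the domain on chromosome 15 at 27468164 to 27474399 had a limma log2 difference of 1.42 ± 0.477 (SE; adjusted p = 0.263). Its covered share was 25.1% and 26.4% in aged enriched, 21.8% and 25.5% in aged control, 62.3% and 46.9% in young enriched and 40.9% and 92.7% in young control samples. The aged enriched values there were close to those of aged control samples although their lists were far shorter. The domain on chromosome 5 at 115127208 to 115132283 had a difference of 1.14 ± 0.427 by limma (SE; adjusted p = 0.290). It had 45.9% and 35.7% covered in aged enriched and 86.7% and 25.7% in aged control samples, so the groups overlapped. Without scaling to the list its difference was -0.22.

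In aged minus young, the domain on chromosome 18 at 83162976 to 83172289, 9314 bp wide, had the smallest p among those lower. Peaks covered 0% and 0% of it in aged enriched, 41.9% and 18.6% in aged control, 72.4% and 79.98% in young enriched and 77.5% and 85.8% in young control samples. Every aged sample lay below every young sample. Its adjusted p by limma was 0.248, and it passed the threshold without young control replicate 1 (adjusted p = 0.0324 by limma) and without replicate 2 (adjusted p = 0.0378 by limma). The chromosome 10 domain at 39224931 had the same limma adjusted p of 0.248, with 0.0266 and 0.0378 by limma without those samples. Those higher relative to the list lay on chromosome 5 at 73600777 to 73605961, with a limma log2 difference of 0.81 ± 0.239, and on chromosome 19 at 7166915 to 7173146, with 0.94 ± 0.279 (SE; adjusted p = 0.251 for both). On chromosome 19 the covered share was 42.8% and 23.5% in aged enriched, 83.1% and 83.4% in aged control, 53.2% and 57.2% in young enriched and 53.8% and 76.0% in young control samples. There both aged control samples lay above all others. Without scaling to the list these 2 differences were -0.32 on chromosome 5 and -0.18 on chromosome 19.

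In young enriched minus young control, replicates of 1 group differed in the domains with the smallest p. The domain on chromosome 4 at 149247254 to 149253178 had 73.1% and 75.5% covered in young enriched samples against 0% and 72.7% in young control samples. In aged enriched samples it had no peak, against 89.4% and 67.1% in aged control samples. On chromosome 6, the domain at 120965763 to 120971326 had 78.0% and 57.4% in young enriched samples and 17.1% and 62.5% in young control samples. Those lower were on chromosome 10 at 41901043 to 41906534, with 20.2% and 0% in young enriched and 45.5% and 93.9% in young control samples, and on chromosome 13 at 103523679 to 103529307, with 15.5% and 52.9% in young enriched and 87.5% and 79.4% in young control samples. The limma adjusted p was 1 for all 4.

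For enriched minus control and for the difference between housing effects, the domains on chromosome 8 at 124783626 and chromosome 10 at 39224931 again had the smallest p among those lower, with limma adjusted p of 0.416 and 0.435. Among those higher in enriched minus control were the domain on chromosome 5 at 115127208 and one on chromosome 6 at 121009986 to 121016716, with limma log2 differences of 0.70 ± 0.302 (SE; adjusted p = 0.450) and 0.46 ± 0.215 (SE; adjusted p = 0.535). Without scaling to the list both turned negative, to -0.018 on chromosome 5 and -0.26 on chromosome 6. The chromosome 6 domain had 33.4% and 30.4% covered in aged enriched, 66.3% and 35.1% in aged control, 61.1% and 70.6% in young enriched and 44.8% and 91.5% in young control samples. Among those with a higher housing effect in aged samples were the domain on chromosome 15 at 27468164 and one on chromosome 17 at 56555666 to 56562278. The chromosome 17 domain had a limma value of 1.03 ± 0.502 (SE; adjusted p = 0.639), with 42.9% and 26.3% covered in aged enriched, 67.3% and 41.7% in aged control, 59.96% and 80.1% in young enriched and 88.2% and 94.4% in young control samples. Without scaling to the list its value was -0.23.

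Groups that did not overlap were frequent between aged enriched and aged control samples when list length was not taken into account. By length under peaks, both aged enriched samples were below both aged control samples in 317 domains (78.1%), against 25.4% of the 56794 regions, and above them in 0 domains, against 1.11%. Without young control replicate 2 the lower count was 198 of 245 domains (80.8%) against 28.9%. Relative to list length the lower count was 130 domains (32.0%) against 14.6%, and the higher count 21 (5.17%) against 5.32%. Without aged enriched replicate 1, 272 of 398 domains were lower on this relative scale (68.3%) against 20.3%, and 54 higher (13.6%) against 20.1%. Without aged enriched replicate 2, 173 of 405 were lower (42.7%) against 18.2%, and 120 higher (29.6%) against 22.4%. Without aged control replicate 2, 155 of 368 were lower (42.1%) against 33.8%, and 47 higher (12.8%) against 6.42%. Without young control replicate 2, 72 of 245 were lower (29.4%) against 16.5%, and 13 higher (5.31%) against 6.00%. All 4 aged samples lay below all 4 young samples by length in 73 domains (17.98%), against 9.48% of regions, and above them in 0, against 0.0282%. Without aged control replicate 1 the lower count was 165 of 286 (57.7%) against 18.7%, and without young control replicate 2 it was 46 of 245 (18.8%) against 12.9%. The rule chose regions that were long under these same peaks, so nothing about the domains is read from the gap to other regions.

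Along the genome the domains were unevenly spread. Chromosomes 4, 5, 8, 15 and 11 held 50, 41, 37, 33 and 32 domains, together 193 or 47.5%, against 31.4% of all merged regions. Per 1000 merged regions there were 4.63 domains on chromosome 15 and 4.61 on chromosome 4. Chromosome 3 held 3 domains (0.739%) although it had 4.78% of regions, or 0.401 per 1000, and chromosome 16 held 4. Of the domains, 50.5% lay in the last 20% of their chromosome, measured up to its last peak, against 43.9% of regions of 4000 to under 5000 bp, 38.8% of those of 2000 to under 5000 bp, 34.3% of those of 1000 to under 2000 bp and 30.1% of those under 1000 bp. The last 10 Mb held 100 domains (24.6%), against 18.99% of regions of 2000 to under 5000 bp and 12.6% of those under 1000 bp. The shift towards chromosome ends increased with the width class. Base composition and gene density, which vary along chromosomes, were not analysed here.

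Domains also lay close to one another. The median distance to the nearest other domain was 150310 bp, 185 domains (45.6%) had another within 100 kb, and the smallest gap was 62 bp. Windows of 1 Mb that held a domain numbered 243 of 2174 windows with a region, and they held a median of 152 merged regions against 60 over all windows. There were 44 windows with 3 or more domains, which held 160 domains (39.4%). The fullest was on chromosome 11 from 115 to 116 Mb, with 6 domains. Chains of domains no more than 10 kb apart numbered 37 and took in 77 domains, with a median span of 17662 bp. Chains of 3 domains lay at 121009986 to 121039498 of chromosome 6, at 67998151 to 68019868 of chromosome 11 and at 124435126 to 124458939 of chromosome 5. The chain on chromosome 5 spanned 23814 bp, of which 85.9% was domain.

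The surroundings of the domains were also rich in 5hmC peaks. Flanks from 5 to 50 kb on each side had 5.67% and 3.40% of their length under peaks in aged enriched samples, 19.5% and 11.5% in aged control, 16.7% and 18.8% in young enriched and 14.3% and 24.3% in young control samples. Flanks of regions of 2000 to under 5000 bp had 3.75% and 2.43%, 12.9% and 7.23%, 11.6% and 13.0%, and 9.72% and 17.4% in the same 4 groups. The fold of domain flanks over these averaged 1.47, between 1.396 and 1.59, and was above 1 in 8 of 8 samples (exact two-sided sign-flip permutation, p = 0.00781). Over flanks of regions of 4000 to under 5000 bp the fold was 1.13, between 1.11 and 1.15, and over flanks of regions under 1000 bp it was 3.16, between 2.69 and 3.71, each in 8 of 8 samples (exact sign-flip permutation, p = 0.00781 for both). Domains that neighbour each other share flanks, and 161 domains had another domain in their flanks, which took up 3.10% of the flank length. With all broad domains left out of every flank, the fold over flanks of regions of 2000 to under 5000 bp was 1.42, between 1.35 and 1.54, and with all merged regions of 2000 bp or more left out it was 1.23, between 1.18 and 1.34, each in 8 of 8 samples (exact sign-flip permutation, p = 0.00781 for both). Over flanks of regions of 4000 to under 5000 bp these folds were 1.12 and 1.04. The tests are over samples, but the width classes and the flanks came from the same 8 lists, with no sample held out. Pooled peaks merge into wide regions more readily where peaks are dense. The p-values are therefore no independent support, and the folds are a description. The measure was chosen after the data had been seen. Broad domains thus lay in neighbourhoods with many peaks, and regions just under the threshold had surroundings that were only slightly poorer.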

How the data were processed

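The deposited files are 8 peak lists, 1 per sample, called per sample, with each peak's start, end and score. Per the submitters' processing notes, the tools were MACS 1.4.2, Bowtie 0.12.9 and CASAVA 1.4, with build mm9. The score is the authors' own value per peak as deposited and was used only to rank or filter peaks within a list. Read depth is unknown and caller settings were not given in the sources used here, so no interval that needs counts was computed. All 406 domains and all lists were kept. The domains, measures and tests were chosen with earlier results of these data known.

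Coverage of a region was the percent of its length under a sample's peaks. For tests, domains and narrower regions were defined from the other 7 lists, and log2 values were compared by exact permutation over samples (Benjamini-Hochberg over 6 tests). limma 3.58.1 (R 4.3.3), with a trend and 4 groups, was fitted to log2 of base pairs under peaks plus a pseudocount of 250 bp scaled to the list, divided by the list's length under peaks. Its p-values were adjusted by Benjamini-Hochberg over all regions and called under 0.05. It was tested on simulated data with 200 changed regions. At a spread of 0.1 of the real one it recovered 78% to 100% per size of change for aged enriched minus aged control over 56794 regions. Python 3.11.15, NumPy 2.4.6, pandas 2.3.3 and SciPy 1.17.1 were used. Domains were named by rule: the widest 5, the widest 5 with peaks in all 8 lists, the 5 with the highest mean coverage, the 2 of smallest limma p per contrast and direction, the 3 on each side of the threshold. The chains, the fullest window, the domain with peaks in 2 lists and the domain on chromosome 11 without aged enriched peaks were named after their values were seen. Samples were not paired by replicate number. Alternatives were other width, score, merging and scaling settings, equally long lists and leaving out each sample. No mm9 genome was used here, so base composition, genes and sequences were not analysed.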

Additional observations from a re-analysis of the deposited data

Results flagged for a closer look

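Of 120 groups of 4 samples examined over 30 measures and named domains, 4 held a sample far from the other 3 by Dixon's test, which by chance alone marks about 1 in 20 groups. In the domain on chromosome 10 at 79195366 to 79204079, aged control replicate 2 was the lowest control sample with 71.9% covered, and the next was at 92.1%. In the domain on chromosome 4 at 149247254 to 149253178, young control replicate 1 had 0.0% covered, and the next young sample 72.7%. In the domain on chromosome 10 at 41901043 to 41906534, young control replicate 2 was the highest control sample with 93.9%, and the next was at 48.1%. In the domain on chromosome 6 at 121009986 to 121016716, aged control replicate 1 was the highest aged sample with 66.3%, and the next was at 35.1%.

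In 2 of the 30 measures and named domains, enriched and control samples did not overlap in either age and stood in opposite order in the 2 ages. The difference was not tested, and how often this arises by chance was not computed. The mean number of peaks per domain was lower in enriched than in control samples among aged mice, by -0.555, and higher among young mice, by 0.176, a difference of -0.731. In the domain on chromosome 4 at 149247254 to 149253178, coverage in enriched minus control samples was -78.2 percentage points in aged and 38.0 in young mice, a difference of -116.2 points. The young value rests on young control replicate 1, which had no peak there. This domain was named for its small limma p in young enriched minus young control, so its young difference was picked.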

How the results depend on the processing

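The number of domains was 991, 182 and 43 at thresholds of 4000, 6000 and 8000 bp, 2185 when peaks up to 500 bp apart were merged, 261 from peaks with a score of 100 or more, and 245 to 405 when a sample was left out. Aged minus young coverage was -1.66 to -0.75 (log2) when a sample was left out. Aged enriched minus aged control coverage was -2.45 to -1.34. Relative to narrower regions, aged minus young was -0.20 with equally long lists and -0.044 with domains from all 8 lists. The relative difference between housing effects was -0.52 to 0.071 when a sample was left out, and it was 0.012 without aged enriched replicate 2 and 0.071 without young control replicate 2. The relative aged enriched minus aged control value was -0.58 with equally long lists and -0.54 to -0.0076 when a sample was left out, and the relative young enriched minus young control value was -0.29 to 0.20. Domains covered more fully than narrower regions and flanks with more peaks kept their direction under every alternative run for them. Their log2 folds were 1.10 to 1.21 and 0.51 to 0.57 when a sample was left out (exact sign-flip permutation p = 0.0156, the smallest that 7 samples can give). For the flanks these p-values are no independent support, since the classes and flanks came from the same lists.

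With an unscaled pseudocount of 250 bp, limma called 1 domain lower in aged enriched minus aged control, 1 in aged minus young and 1 in the difference between housing effects. Each time this was 0.246% of domains, against 0.00176% of regions. With that setting limma called 0 domains higher, against 0.00352%, 0.0123% and 0.0% of regions in the same order. In aged minus young it called 41 lower (10.1%, against 3.70% of regions) without scaling to the list. The calls made when a sample was left out are given above beside the share of regions. Of 357 alternatives for 20 values of named domains, 6 changed sign, all without scaling to the list: -0.22 and -0.018 on chromosome 5 at 115127208 (aged enriched minus aged control, enriched minus control), -0.32 on chromosome 5 at 73600777, -0.18 on chromosome 19, -0.26 on chromosome 6 at 121009986 and -0.23 on chromosome 17. Another 8 passed the limma threshold. Read depth is unknown and limits every comparison of list lengths. The causes of these changes were not tested.

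Same-numbered samples did not deviate together (correlations of -0.0138 to 0.0269), and the samples were not paired by number. With 2 samples per group this check could not exclude a pairing, which the labels do not state. With the replicate block, exact permutation gave p = 0.167 for age, 0.278 for housing and 0.375 for the difference between housing effects on coverage, against 0.611, 0.500 and 0.750 relative to narrower regions, and limma called 0 domains in all 5 contrasts.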

Other observations

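The rule was also applied to parts of the data, as a description. The 4 aged lists alone gave 61 domains and the 4 young lists 246, and 41 of them overlapped, or 67.2% of the aged and 16.7% of the young domains. The 4 enriched lists gave 62 and the 4 control lists 269, with 44 overlapping, or 71.0% and 16.4%. Lists of the 2 samples of a group gave 0 domains in aged enriched, 53 in aged control, 47 in young enriched and 112 in young control.

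Lists without a peak in a domain were mostly those of aged enriched samples. Aged enriched replicate 2 alone lacked a peak in 79 domains, replicate 1 alone in 49 and both, with no other list missing, in 21. Coverage increased with the width class of a merged region in every sample except aged enriched replicate 2, where it was 9.62% in regions under 1000 bp, 6.57% at 1000 to under 2000 bp, 8.48% at 2000 to under 5000 bp and 9.91% in the broad domains. The classes were set by all 8 lists, each sample's own included, so the increase is tied to the merging rule and is a description.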
